A study of Homo sapiens with 4 samples.

Results

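Mitochondrial ribosomal protein genes were taken as every row of the deposited UMI count table whose symbol starts with MRPL or MRPS followed by a number. The rule gave 78 of 19238 rows, 48 named for the large and 30 for the small subunit of the mitochondrial ribosome. They carry 76 distinct symbols, since MRPL30 and MRPS17 each have a second entry (MRPL30.1 and MRPS17.1). The cells came from 4 human melanoma lines profiled by droplet-based 3' RNA sequencing, with 1 library per line and no replicate. WM239A is labelled poorly metastatic, and the 3 other lines are labelled as its subclones: 113/6-4L with a high potential for metastasis to the lung, and 131/4-5B1 and 131/4-5B2, both to the brain. The labels name no treatment and no genotype for any line. The 8173 cells carry barcode suffixes 1 to 4, which part them into 4 sets. Nothing in the names or labels ties a suffix to a line, so no line was compared and the values below describe 4 unlabelled sets.

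Sets 1 to 4 held 2121, 1779, 2140 and 2133 cells, between 71182648 and 71915542 UMIs (molecules counted), and medians of 33152.5 to 41131 UMIs per cell, highest in set 2. The family gave a median of 331, 419, 289 and 311 UMIs per cell. Levels are in CPM, the UMIs of a gene in all cells of a set per 1000000 UMIs of the set, and 4 values in a row are those of sets 1, 2, 3 and 4. A molecule is counted once at its 3' end whatever its length, so no length correction applies, but capture can differ between genes. Intervals are exact 95% intervals and cover counting error only. The labelled cell type was checked against 7 melanocyte markers, of which 6 reached 10 CPM in a set. PMEL stood between 2201 and 4883 CPM, and DCT, a pigment enzyme, between 151 and 421 CPM. TYRP1 did not reach 10 CPM, at 0.195 to 9.37 CPM. Rows were present for 4 of 6 immune, 2 of 5 endothelial and 4 of 6 fibroblast markers. None of these immune or endothelial markers reached 10 CPM. Of the fibroblast markers LUM alone did, at 12.7 CPM in set 1 against 0.182 to 2.18 CPM elsewhere. The part of such markers in the family's levels was not tested. Of the 8134 barcode sequences, 39 occur in more than 1 set, which concerns 78 cells.

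The mitochondrial ribosome translates the mRNAs that mitochondrial DNA encodes, all of them for subunits of the respiratory chain and ATP synthase. Its rRNAs are made inside the organelle, whereas its proteins are encoded in the nucleus, translated in the cytosol and imported, and their genes lie scattered over the chromosomes. Many of the proteins descend from those of bacterial ribosomes, and others exist only in mitochondria. Nuclear respiratory factor 1 (NRF1), the ETS-family factor GABP and YY1 are known regulators of nuclear genes for mitochondrial proteins.

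Promoters are shown here because a set of scattered genes that encode 1 particle can share letters at the start site. RefSeq (GRCh38.p14) gave a promoter, 250 bases before to 50 after the start, for 67 of the 76 symbols and for 63 of those with measured levels. The ETS core CCGGAAG was found on either strand in 26 of these 63 promoters (41.3%), against 10.3% of all 35116 promoters in the table and 22.3% of the 5683 promoters of genes compared below. The YY1 core AAGATGGC was found in 18 (28.6%), against 2.89% and 6.41%. The NRF1 core GCGCATGC stood in 6 (9.52%, against 3.05% and 6.46%) and the E-box CACGTG in 6 (9.52%, against 7.26% and 11.1%). ETS and YY1 matches occurred together in 7 promoters, and 23 held none of the 4 motifs. The E-box reads the same on both strands, and the NRF1 core can overlap its own reverse. In the shown stretch, 10 of the 14 YY1 matches lay on the gene's strand after the start site. The core contains the letters ATG, and whether these were start codons was not examined. Median levels were 120.5 CPM in members with the YY1 core and 112 CPM in those without, and 129 and 112 CPM for the ETS core. A match describes letters and not a bound site.

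The windows below run from 100 bases before to 30 after the start, 5' to 3' on the gene's strand, with the motifs in capitals. MRPL51 (chr12:6493233-6493362, minus strand) is the highest member and has a YY1 match after its start. MRPL20 (chr1:1407264-1407393, minus) departs downwards in set 1 and combines a pair of ETS matches with a YY1 match. MRPS34 (chr16:1773105-1773234, minus) holds 3 reverse ETS matches, and MRPL17 (chr11:6683311-6683440, minus) has 3 NRF1 matches, a pair of which overlap. MRPL46 (chr15:88467359-88467488, minus) and MRPS11 (chr15:88467608-88467737, plus) are shown because they lie head to head, with start sites 320 bases apart. MRPL18 (chr6:159789712-159789841, plus) had the largest difference between cell cycle phases and held none of the motifs.
MRPL51: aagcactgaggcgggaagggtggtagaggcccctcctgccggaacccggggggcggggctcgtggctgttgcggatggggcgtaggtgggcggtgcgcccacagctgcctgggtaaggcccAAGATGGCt
MRPL20: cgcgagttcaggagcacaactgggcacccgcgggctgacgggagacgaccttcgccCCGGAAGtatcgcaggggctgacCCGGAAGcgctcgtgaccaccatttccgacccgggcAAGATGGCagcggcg
MRPS34: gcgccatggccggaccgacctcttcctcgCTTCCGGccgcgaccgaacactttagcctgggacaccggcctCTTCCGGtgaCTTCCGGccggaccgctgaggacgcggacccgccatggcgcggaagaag
MRPL17: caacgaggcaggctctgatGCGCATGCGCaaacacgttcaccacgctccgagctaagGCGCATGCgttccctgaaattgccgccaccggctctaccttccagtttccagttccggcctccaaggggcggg
MRPL46: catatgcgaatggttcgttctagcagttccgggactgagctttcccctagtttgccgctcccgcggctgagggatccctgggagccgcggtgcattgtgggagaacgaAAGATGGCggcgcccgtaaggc
MRPS11: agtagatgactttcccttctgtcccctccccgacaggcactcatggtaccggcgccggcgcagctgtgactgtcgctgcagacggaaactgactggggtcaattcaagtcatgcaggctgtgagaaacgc
MRPL18: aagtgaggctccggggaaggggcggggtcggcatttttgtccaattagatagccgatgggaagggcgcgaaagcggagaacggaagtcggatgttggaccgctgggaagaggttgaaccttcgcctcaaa

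Most members lay in a narrow band of levels. Of the 78 rows, 73 reached 10 CPM in at least 1 set and are called measured (45 large, 28 small), and 53 of these had a mean level over the sets between 50 and 250 CPM. The median measured member stood at 107.5 CPM. MRPL51, a mitochondria-specific protein of the large subunit, was the highest at 671, 632, 505 and 568 CPM. It was followed by MRPL41 (419, 442, 381 and 406 CPM), MRPL23 (390, 399, 345 and 366 CPM) and MRPS15 (366, 389, 349 and 367 CPM). MRPL41 is found in mitochondria only, while MRPL23 and MRPS15 have bacterial relatives. MRPS21, the relative of bacterial S21, came next at 255, 323, 287 and 287 CPM. These 5 genes made up 21.2% of the family's CPM. At the low end stood MRPL53 (12.6, 13.9, 11.9 and 12.4 CPM), MRPS31 (14.4, 16.5, 15.4 and 16.7 CPM) and MRPL46 (22.7, 22.3, 15 and 17.5 CPM), all 3 specific to mitochondria. The counting intervals of MRPL53 overlapped in sets 1, 3 and 4 (11.8 to 13.5 CPM in set 1), so its sets are told apart less well than those of the abundant members.

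**Figure D1:**
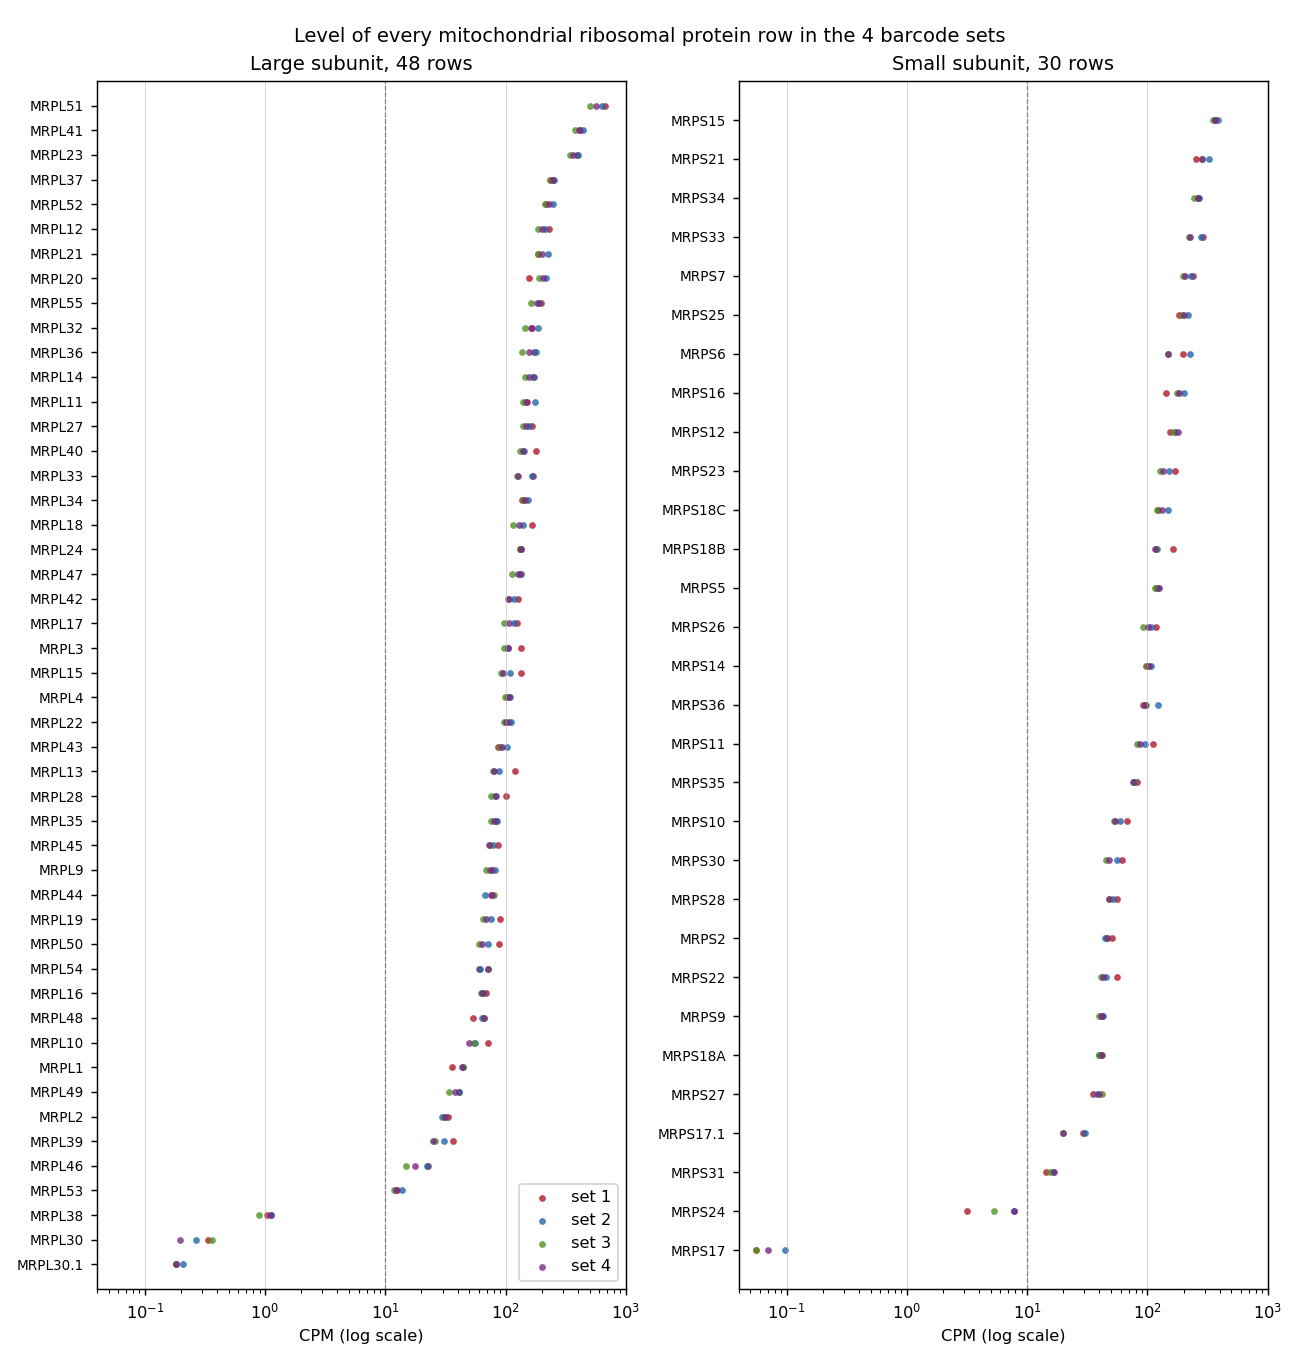
CPM (log scale) of each of the 78 rows, large subunit on the left and small on the right, ordered by mean level, with 1 coloured point per barcode set and a dashed line at 10 CPM. Most rows sit between 50 and 250 CPM with their 4 points close together, and MRPL38, MRPL30, MRPL30.1, MRPS24 and MRPS17 lie left of the line.

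By the systematic names among the RefSeq synonyms, 43 measured members are named as bacterial or universal proteins (conserved) and 28 as specific to mitochondria. MRPS28 and MRPS36 had no such name. MRPS18A (mL66) and MRPS18B (mS40) are among the 28 although they are relatives of bacterial S18, so the classes follow the names and not ancestry. The conserved members had a median level of 127 CPM (24.9 to 375 CPM) and the mitochondria-specific ones 77.9 CPM (12.7 to 594 CPM). The range of the conserved members lay within that of the others. The median over the sets' deviations (defined below) was -0.10 in set 3 for conserved and -0.07 for mitochondria-specific members, and 0.06 and 0.07 in set 1.

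Summed over the family, set 3 was the lowest. The sums were 10057, 10182, 8856 and 9361 CPM, that is 1.01%, 1.02%, 0.886% and 0.936% of all UMIs. Set 1 stood 1.14-fold above set 3 (1.13 to 1.14) and set 2 stood 1.150-fold above it (1.146 to 1.154), while set 4 was 1.06-fold above it (1.05 to 1.06). Scaling by TMM gave 1.07, 1.14 and 1.05, and G1 cells alone gave 1.14, 1.14 and 1.06. The order of the 4 sums was the same under each of these.

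The large subunit outweighed the small in every set, and most in set 1. Large subunit rows summed to 6429, 6392, 5546 and 5918 CPM and small subunit rows to 3628, 3790, 3309 and 3443 CPM. The ratio of the sums was 1.77 (1.76 to 1.78), 1.69 (1.68 to 1.69), 1.68 (1.67 to 1.68) and 1.72 (1.71 to 1.73), so the intervals of sets 2 and 3 overlapped and those of sets 1 and 4 lay apart from them and from each other. The subunits also differ in their number of rows. Per row, the mean was 134, 133, 116 and 123 CPM in the large and 121, 126, 110.3 and 115 CPM in the small subunit. The median of measured members was 127, 112, 97.5 and 106 CPM in the large and 115, 114, 97.8 and 102 CPM in the small subunit, so by medians the large subunit was not the higher in sets 2 and 3.

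Some symbols do not name the particle their protein sits in. MRPS30 and MRPS18A carry names of the small subunit but sit in the large one, as their systematic names in RefSeq state, and MRPS36 is listed there as KGD4, a component of the oxoglutarate dehydrogenase complex. With MRPS30 and MRPS18A moved and MRPS36 left out, the ratios were 1.90, 1.82, 1.80 and 1.84 and kept set 1 highest and set 3 lowest. MRPS30 stood at 61.4, 56.2, 45.7 and 47.6 CPM, the same order of sets 1, 2, 4 and 3 as MRPL12, the stalk protein of the large subunit (231, 212, 186 and 200 CPM). MRPS36 stood at 91.2, 124, 97.1 and 95.7 CPM, with set 2 alone high.

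**Figure D2:**
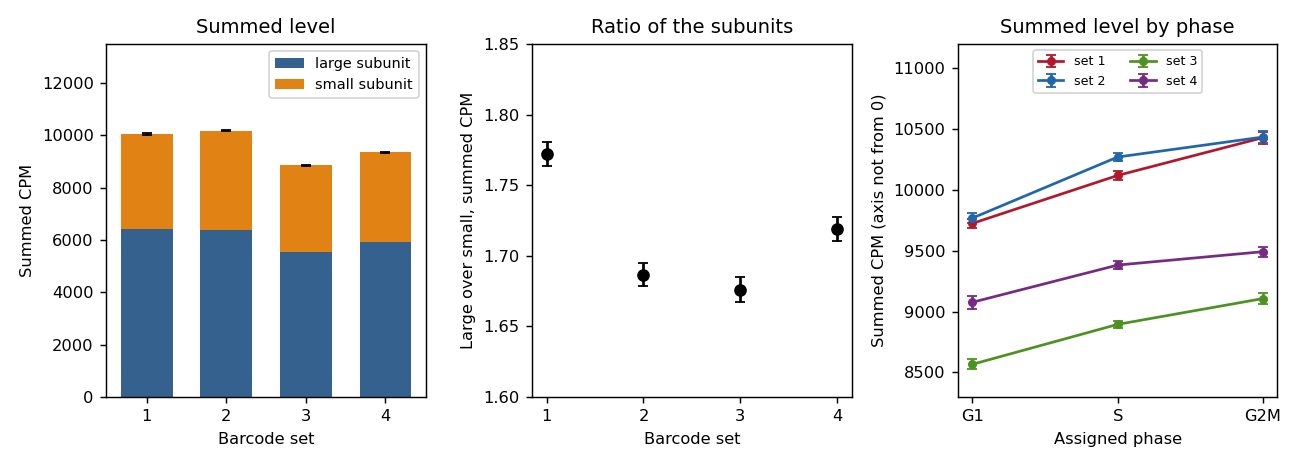
Left, summed CPM of the large (blue) and small (orange) subunit rows per barcode set with the 95% counting interval of the total. Middle, ratio of large to small summed CPM with its 95% interval, on an axis that does not start at 0. Right, summed CPM in cells assigned to G1, S and G2M, 1 line per set. Set 3 is lowest on the left and in every phase, set 1 has the highest ratio, and each line rises from G1 to G2M.

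No measured member differed 2-fold between the sets. A gene's span is its highest minus its lowest log2(CPM + 1) over the sets. A span of at least 25% was seen in 31 of 73 members (42.5%), against 52.1% of the 7421 genes that reached 10 CPM in a set. At 1.5-fold the count was 3 members, against 17.3% of genes, and at 2-fold it was 0, against 5.85% of genes. The median member spanned 0.29 (1.22-fold) and the median gene 0.33 (1.26-fold). Without set 1, 10 of 73 members spanned 25%, against 22.2% of genes. The 3 members past 1.5-fold were MRPL13, MRPS6 and MRPS17.1, each just past it, and with TMM scaling none was, against 17.3% of genes. Just below it lay MRPL46.

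Most members were lowest in set 3. For each gene, the deviation is its log2(CPM + 1) in a set minus its median over the 4 sets. Members had median deviations of 0.06, 0.07, -0.09 and -0.02, and all compared genes 0.04, -0.01, -0.01 and 0.0031. Lowest in set 3 were 48 of 73 members (65.8%), against 31.5% of genes. Highest in set 1 were 35 (47.9%, against 44.9%) and highest in set 2 were 30 (41.1%, against 19.2%). Higher in set 2 than in set 3 were 67 of 73 members, by a median of 0.18, against 51.3% of genes and a median of 0.01. Set 1 exceeded set 3 in 55 members (75.3%, median 0.18), against 59.2% of genes (median 0.08), and set 3 exceeded set 4 in 10 (13.7%), against 40.1% of genes. The 48 members lowest in set 3 became 40 with TMM scaling, 39 with totals that leave out mitochondrially encoded and cytosolic ribosomal protein genes, and 40 in G1 cells. The share of all compared genes lowest in set 3 was not taken under these alternatives, and it can move with them. Of the measured members, MRPL24 spanned least, at 131, 135, 133 and 134 CPM (named after its values were seen).

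Members departed in both directions in set 1, where their deviations spread most, with an SD over the 73 members of 0.18 against 0.10, 0.09 and 0.07 in sets 2 to 4. MRPL13, a conserved large subunit protein, stood at 121 CPM in set 1 (118 to 123) against 87.6, 78.5 and 79.5 CPM, a ratio of 1.54 to set 3 (1.48 to 1.59). MRPL15, another conserved large subunit protein, stood at 133, 109.7, 92.1 and 95 CPM. MRPL50, specific to mitochondria, was at 88.4, 71.4, 60.3 and 63.5 CPM. MRPL18, a conserved large subunit protein, followed the same order, 166, 140.1, 115 and 131 CPM, and so did the weaker and mitochondria-specific MRPL39 in sets 1 and 2, at 36.3, 30.6, 25.7 and 25.1 CPM. In these 5 genes set 1 was the highest and set 2 the next, and the counting intervals of sets 1 and 2 did not touch. Other members went the opposite way. MRPL20, conserved and in the large subunit, stood at 156 CPM in set 1 (154 to 159) against 219, 189.5 and 205 CPM. MRPS16, a conserved small subunit protein, behaved alike at 143, 200.1, 175 and 183 CPM. For both, set 1 was 1.4-fold below set 2.

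Set 2 had its own departures. MRPS6, a conserved small subunit protein, formed a pair of levels, 197 and 224 CPM in sets 1 and 2 against 149 and 149.5 CPM in sets 3 and 4. Set 2 was 1.51-fold above set 3 (1.47 to 1.54). MRPS17.1, the second entry of a conserved small subunit gene, formed the same pairs at 29.2, 30.5, 19.9 and 20.1 CPM. MRPL46, whose values are given above, was also higher in sets 1 and 2, with set 3 lowest, 1.52-fold below set 1 (1.4 to 1.64). Its deviation of -0.38 in set 3 was the farthest below 0 of any measured member in any set. A few members ran against the family, with set 3 or set 4 highest. MRPL54, specific to mitochondria, stood at 60.3, 60.8, 71.7 and 71.6 CPM. MRPL44, a large subunit protein with an RNase III-like fold, stood at 75.9, 67.3, 79.4 and 77.7 CPM, lowest in set 2. MRPS27, a small subunit protein of the pentatricopeptide repeat family, stood at 35.6, 38.3, 41.8 and 39.5 CPM, and MRPS12, the conserved protein of the decoding site, at 153, 169.6, 167 and 182 CPM.

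The 3 relatives of bacterial S18 did not share a pattern. MRPS18C, placed where S18 sits in bacteria, stood at 123, 149, 120.2 and 132 CPM, highest in set 2. MRPS18B, a small subunit protein elsewhere in the particle, stood at 163 CPM in set 1 (160.0 to 165.9) and at 121, 119 and 116 CPM in the others. MRPS18A, of the large subunit, hardly varied, at 41.6, 39.8, 39.3 and 42.3 CPM, and set 4 was 1.08-fold above set 3 (1.02 to 1.13). Its intervals in sets 1 and 4 overlapped, so that neither can be called its highest set.

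**Figure D3:**
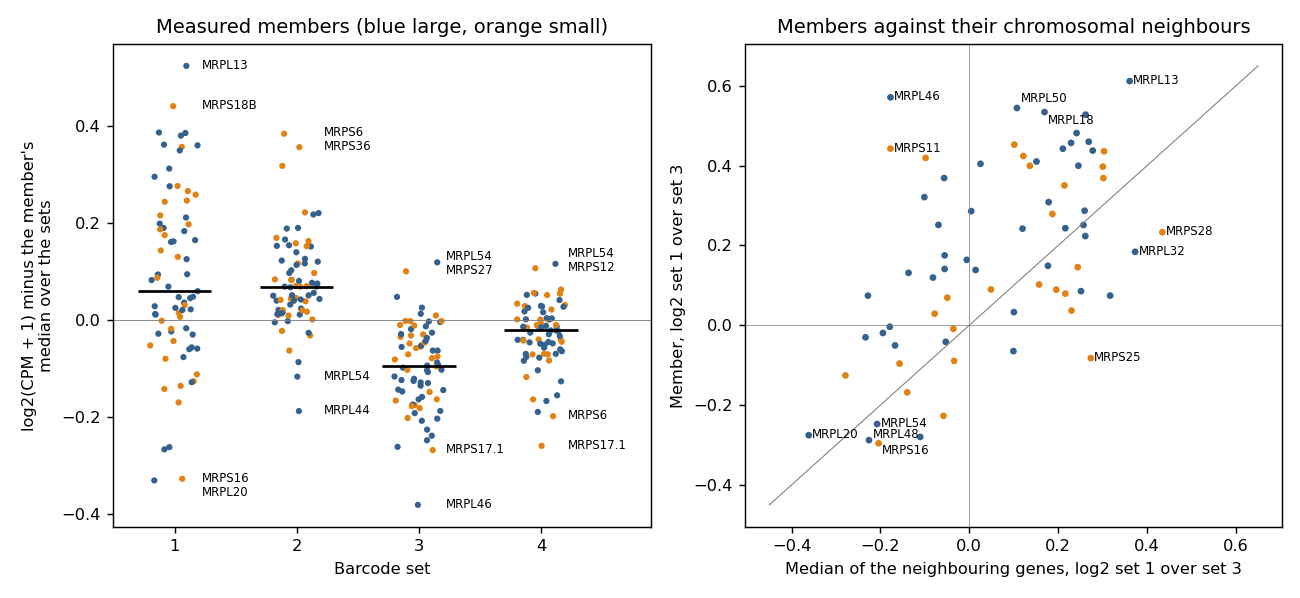
Left, deviation of each of the 73 measured members from its own median over the sets, with the median of members as a black bar and the 2 farthest members on each side named. Right, log2 ratio of set 1 to set 3 for 72 members against the median of their chromosomal neighbours, with the line of equality. Points of set 1 spread widest, most of set 3 lie below 0, and members tend to lie above the line in the right panel.

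Where a member lies on the chromosomes went with its difference between sets 1 and 3. For 72 measured members, spread over 21 chromosomes, the 10 nearest compared genes on each side were taken in RefSeq order. Across these genes, which are not independent replicates and can share neighbours, the member's log2 ratio of set 1 to set 3 and the median of its neighbours had a Pearson r of 0.54 and a Spearman rho of 0.51. Of 18 members lower in set 1 than in set 3, 16 had neighbours that were lower too, and of 54 members higher in set 1, 40 had neighbours that were higher too and 14 did not. MRPL20 (chromosome 1) was at -0.28 with neighbours at -0.36, MRPS16 (chromosome 10) at -0.30 with -0.20, MRPL54 (chromosome 19) at -0.25 with -0.21, and MRPL13 (chromosome 8) at 0.61 with 0.36. Unlike their neighbours were MRPS25 (chromosome 3), at -0.08 with 0.27, and MRPL36 (chromosome 5), at 0.32 with -0.10. The copy number of these regions was not measured. The same figures were not taken over all compared genes, so whether members follow their neighbours more than other genes do was not examined. For set 2 over set 3, which shares set 3 with the ratio above, r was 0.31. There, members had a median of 0.18 and their neighbours a median of -0.0030, and 65 of 72 members lay above their neighbours' median. For set 1 over set 3 it was 0.17 against 0.10, with 50 of 72 above.

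The head-to-head genes MRPL46 and MRPS11 on chromosome 15, whose promoters are shown above, were the only members next to each other among the protein-coding genes of RefSeq. MRPS18A and MRPL14 on chromosome 6 have another gene between them but, among the compared genes, the same neighbours. In set 1 over set 3 MRPL46 and MRPS11 stood at 0.57 and 0.44, against a neighbours' median of -0.18. MRPS11, a conserved small subunit protein, stood at 111, 96.1, 81.5 and 87.2 CPM, so it had the order of sets 1, 2, 4 and 3. MRPL46 had the same order at a lower level, with overlapping intervals in sets 1 and 2.

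The 5 rows that stayed below 10 CPM in every set were set beside the annotation of their 3' ends. MRPL38 stood at 1.05, 1.11, 0.896 and 1.11 CPM, MRPL30 at 0.335, 0.264, 0.364 and 0.197 CPM, and MRPS17 had 4 to 7 UMIs per set. MRPS24, a conserved small subunit protein, had 225, 557, 380 and 552 UMIs (3.14, 7.75, 5.32 and 7.75 CPM), so that set 2 was 2.47-fold above set 1 (2.11 to 2.90). In GENCODE 29, on GRCh38 and not the submitters' build, 10 of the 76 symbols share the last 300 bases of their 3' end with another gene on the same strand, and MRPL30, MRPL38, MRPS17 and MRPS24 are among them, the last with the readthrough gene URGCP-MRPS24. Reads in such overlaps can be split or left unassigned, so these levels are uncertain, and whether an overlap lowered any of them was not tested. The 6 measured members with such an overlap, MRPL12, MRPL33, MRPL46, MRPL53, MRPS16 and MRPS28, are uncertain in the same way. Their mean levels ran from 12.7 CPM (MRPL53) to 207 CPM (MRPL12). Overlaps were read by symbol, so the measured second entry MRPS17.1, which shares the symbol MRPS17, is uncertain too. Named pseudogenes, with which reads could be confused, exist for 33 members.

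Mitochondrial ribosomal proteins that carry other names did not follow the sum of the family. DAP3, the GTP-binding protein of the small subunit, stood at 71.1, 75.9, 81.3 and 78.4 CPM, and GADD45GIP1 of the large subunit at 265, 277, 299 and 305 CPM, so both were lowest in set 1. ICT1, a peptidyl-tRNA hydrolase built into the large subunit, was highest there (62.3, 55.4, 49.6 and 52.3 CPM). CHCHD1 (60.6, 82.4, 68.4 and 73.2 CPM) and AURKAIP1 (253, 363, 310.1 and 333 CPM), small subunit proteins, ran like MRPL20, lowest in set 1 and highest in set 2. Of the 6, 3 spanned 25% and 1 was lowest in set 3, against 52.1% and 31.5% of all compared genes.

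Genes that build or serve the ribosome were compared by the same count. Of all compared genes, 52.1% spanned 25%, 31.5% were lowest in set 3 and 44.9% highest in set 1. Of 22 measured assembly and rRNA processing factors, 11 spanned 25%, 11 were lowest in set 3 and 11 highest in set 1. Their counts spanning 25% and highest in set 1 were thus near the share of all genes. Their median deviations were 0.11, 0.01, -0.07 and -0.01. MALSU1, which guards the large subunit against early joining, stood at 209.5, 237, 155 and 175 CPM, and YBEY, an endoribonuclease, at 28.5, 16.7, 17.0 and 16.9 CPM. Of 13 measured translation factors, 7 spanned 25% and 6 were lowest in set 3. TACO1, an activator of COX1 translation, stood at 50.7, 40.1, 32.9 and 36.9 CPM, and GFM1, an elongation factor, at 32.6, 22.7, 23.7 and 23.1 CPM. Of 12 measured mitochondrial aminoacyl-tRNA synthetases, 4 spanned 25% and 3 were lowest in set 3, and NARS2 ran against the family at 24.3, 23.7, 37.9 and 37.8 CPM. EARS2 stood at 12.1, 9.43, 7.98 and 8.4 CPM, highest in set 1. In the list on mitochondrial DNA transcription and RNA stability, 9 of 12 spanned 25% and 7 were lowest in set 3, SSBP1, which coats single-stranded mitochondrial DNA, among them (483, 548, 379 and 419 CPM). MTPAP, the mitochondrial poly(A) polymerase, was lowest in set 1 (7.68, 10.4, 11.2 and 12 CPM).

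What the ribosome translates and what it joins did not order the sets as the family did. Of all 7421 compared genes, 2071 were lowest in set 1, 2335 (31.5%) lowest in set 3, 1427 (19.2%) highest in set 2 and 1349 highest in set 3. The 73 measured nuclear-encoded genes of the respiratory chain and ATP synthase had median deviations of -0.0050, 0.08, -0.01 and -0.01. Of these, 38 were highest in set 2 and 23 lowest in set 3, the latter at the share of all genes. The complex I subunits NDUFA3 (90.7, 151, 163 and 156 CPM) and NDUFS7 (139, 172, 213 and 208 CPM) spanned most and were lowest in set 1. The 12 measured mitochondrially encoded mRNAs had -0.25, 0.02, 0.02 and -0.01, and 7 of them were lowest in set 1, where the family was high. Their widest spans were those of MT-ND6 (106, 71.5, 62.9 and 72.4 CPM) and MT-ND4L (93.0, 137, 91.8 and 101 CPM). For cytosolic ribosomal proteins 2 of 78 were lowest in set 3 and 30 highest there, and RPS28 (2104, 2783, 3355 and 3211 CPM) and RPL21 (1056, 1679, 1385 and 1328 CPM) spanned most, both lowest in set 1. Proteasome subunits, which serve as an unrelated complex, had 24 of 30 members lowest in set 3 and median deviations of 0.19, 0.02, -0.10 and -0.02 in sets 1 to 4, and this complex has no part in mitochondrial translation. PSMC2 (169, 137, 112 and 122 CPM) and PSMD7 (217, 162, 145 and 165 CPM) had its widest spans, highest in set 1 and lowest in set 3. Of the regulators, YY1 (71.4, 72.5, 71.3 and 73.6 CPM) and the receptor ESRRA (51.5, 52.4, 50.7 and 50.1 CPM) were nearly level, MYC (79.2, 51.6, 77.0 and 68.9 CPM) and the melanocyte factor MITF (257, 196, 266 and 261 CPM) were lowest in set 2, and NRF1 and GABPA stayed below 10 CPM in every set, at 2.18 to 3.21 and 6.92 to 7.94 CPM.

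Within every set the family's summed share was lowest in cells assigned to G1 and highest in those assigned to G2M. Phases were assigned from S and G2M gene scores in cells thinned to 10000 UMIs. Set 1 summed to 9725 CPM in G1, 10119 in S and 10430 in G2M cells. Set 2 had 9769, 10271 and 10435 CPM in these phases, set 3 had 8567, 8895 and 9107 CPM, and set 4 had 9077, 9383 and 9493 CPM. Counting intervals of G1 and G2M cells did not overlap in any set, and set 3 was the lowest in each phase. G2M cells also had more UMIs, with medians of 35110 to 44189 against 30399 to 37985 in G1, and the part of depth in the difference was not tested. Free RNA and doublets, which enter phase calls too, were not removed. Over all cells of a set, the cell cycle genes with the widest spans were HELLS (20.1, 28.7, 35.7 and 37.5 CPM) and DTL (12.9, 14.7, 17.8 and 19.5 CPM) of the S list and MKI67 (40.8, 51.6, 52.5 and 65.9 CPM) and FAM64A (42.2, 31.6, 26.2 and 32.5 CPM) of the G2 and M list.

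Member by member the phase difference was uneven. The median member was higher in G2M than in G1 cells by 0.07, 0.08, 0.06 and 0.01 (log2) in sets 1 to 4. The median compared gene was higher by 0.04, 0.03, 0.04 and 0.05, so in set 4 the median member rose less than the median gene. Higher in G2M were 52, 50, 48 and 40 of 73 members, and the same share over all compared genes was not taken set by set. At least 25% higher in G2M than in G1 cells in all 4 sets were 2 of 73 members, against 10.2% of compared genes, and 0 were as much lower, against 3.07%. Higher by any amount in all 4 sets were 33 members (45.2%), against 39.5% of genes, and lower were 9 (12.3%), against 26.3%. MRPL18 had the largest difference, with 136, 107, 92.7 and 101.5 CPM in G1 cells of sets 1 to 4 and 202, 171, 135 and 151 CPM in G2M cells, or 0.57, 0.67, 0.54 and 0.56 on the log2 scale. MRPL39 came next, at 28.8, 24.0, 21.0 and 18.4 CPM in G1 and 41.3, 33.9, 30.1 and 26.7 CPM in G2M. In both genes the G2M value was the higher in every set. MRPL42 differed by 0.31 to 0.46, MRPS18C by 0.31 to 0.52 and MRPL51 by 0.28 to 0.32 (log2). On the other side MRPS26 stood at 116, 101.7, 91.5 and 103 CPM in G1 and 107, 93.7, 80.1 and 88.1 CPM in G2M. The members of this paragraph were named after these differences were seen.

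**Figure D4:**
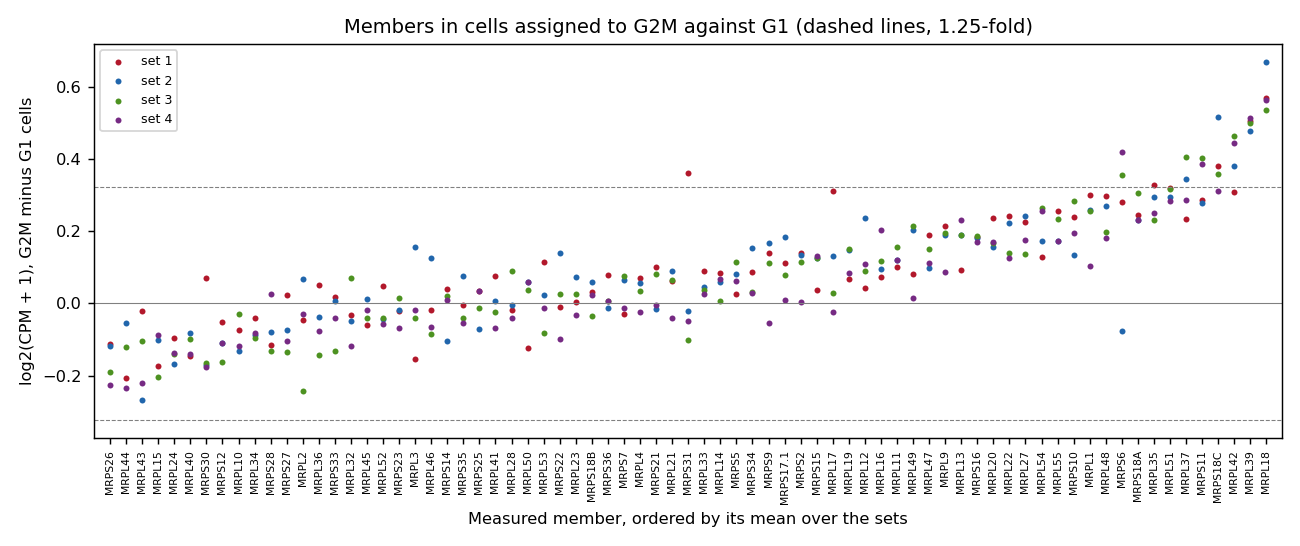
Difference on the log2(CPM + 1) scale between cells assigned to G2M and to G1, 1 column per measured member ordered by its mean, 1 coloured point per set, dashed lines at a difference of 25% in level. MRPL18 and MRPL39 at the right lie above the upper line in all 4 sets, and most members stay between the lines.

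Cells with more large subunit RNA also had more small subunit RNA. In cells thinned to 10000 UMIs the family counted 99.6, 101, 88.1 and 92.9 UMIs on average. Co-variation is given as the covariance of 2 sums over the product of their means, which sampling noise does not inflate because the sums share no molecule. For large against small subunit it was 1.23%, 1.13%, 1.32% and 1.15%, which corresponds to a shared coefficient of variation of 11.1%, 10.6%, 11.5% and 10.7% between cells. Pearson r over cells was 0.35, 0.33, 0.35 and 0.34, and 0.92, 0.84, 0.97 and 1.0 once the counting variance of each sum was taken out. In the central cells of each set, between the lower and the upper quartile of the mitochondrial share of UMIs, the co-variation was 0.955%, 0.649%, 0.782% and 0.654%, less than in all cells by over 1.5 times in sets 2 to 4. In G1 cells alone it was 1.41%, 1.59%, 1.68% and 1.77%.

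The mitochondrial share of a cell's UMIs ran against the family. It correlated with the family's thinned count at -0.35, -0.43, -0.33 and -0.39, and cells in the highest quartile of that share had 0.877, 0.859, 0.886 and 0.877 times the family count of those in the lowest. The highest quartile also had fewer UMIs, with medians of 23339.5 to 31892.5 against 37315 to 45225. With mitochondrially encoded genes left out before thinning, the correlations were -0.22, -0.31, -0.21 and -0.26. Their part in the family's co-variation was not tested beyond the values for the central cells.

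Between cells the family went with many lists and against a pair of them. Its co-variation, as the median over sets, was 1.93% with G2 and M genes, 1.55% with proteasome subunits, 1.53% with mitochondrial DNA transcription and RNA stability, and 1.21% with S phase genes. It was 1.10% with assembly factors, 1.02% with mitoribosome proteins under other names, 0.743% with translation factors, 0.642% with nuclear-encoded respiratory chain genes and 0.552% with mitochondrial aminoacyl-tRNA synthetases. It was -0.623% with cytosolic ribosomal proteins and -1.72% with mitochondrially encoded mRNAs. With the synthetases the values of sets 1 to 4 were 0.428%, 0.0434%, 0.677% and 0.882%, so set 2 was near 0, and their median at 5000 UMIs was 0.127%. In the central cells by mitochondrial share the median was nearer to 0 for each of these lists, at -0.147% with mitochondrially encoded mRNAs, -0.525% with cytosolic ribosomal proteins, 0.896% with proteasome subunits, 0.616% with S and 1.34% with G2 and M genes, 0.977% with mitochondrial DNA transcription and RNA stability and 0.351% with respiratory chain genes. For assembly factors it was 0.729%, for mitoribosome proteins under other names 0.599%, for translation factors 0.362% and for the synthetases 0.293%. The sums share 1 total per cell, so that a gain in 1 list lowers the share of others. This measure also grows with a list's own variation between cells, so its order is not one of closeness. With counting variance taken out, r in sets 1 to 4 was 0.27, 0.29, 0.19 and 0.17 with G2 and M genes. It was 0.70, 0.72, 0.73 and 0.68 with proteasome subunits. With mitoribosome proteins under other names it was 0.98, 0.79, 0.86 and 0.69.

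**Figure D5:**
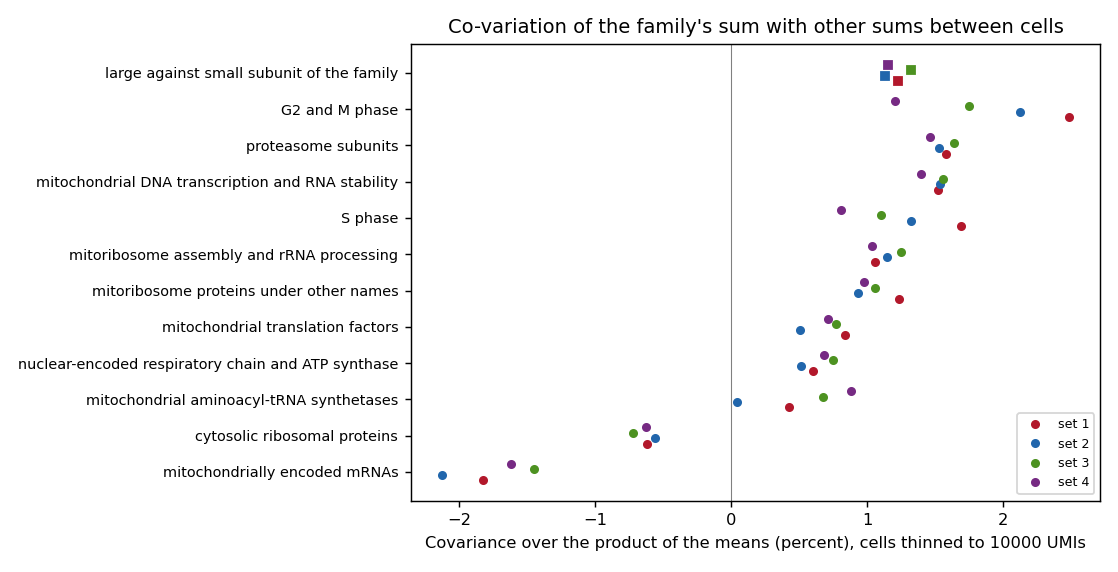
Covariance over the product of means, in percent, between cells thinned to 10000 UMIs, for the large against the small subunit (squares) and for the family's sum against each other list (circles), 1 point per set. Points lie right of 0 except for cytosolic ribosomal proteins and mitochondrially encoded mRNAs, which lie left of it in all 4 sets.

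Single members followed the rest of the family weakly, as sparse counts allow. Over cells, the median r of a member with the sum of the others was 0.09. Positive in all 4 sets were 68 of 73 members, against 2713 of 7348 other compared genes. Among genes of the same level (65.1 to 165 CPM) the median was 0.09 for 37 members and 0.04 for 1126 other genes, and 36 and 681 of these were positive in all 4 sets. Following the family was not particular to members. Without matching for level, nuclear-encoded respiratory chain and ATP synthase genes had a median of 0.09, with 60 of 73 positive in all sets. Proteasome subunits had 0.12, with 29 of 30 positive in all sets. Among members, MRPS18C (0.17), MRPL21 and MRPL51 (0.16 each) and MRPL47 (0.15) had the highest values. MRPL21 and MRPL47 are conserved proteins of the large subunit at 187, 226, 187 and 201 CPM and 133, 133, 114 and 127 CPM. The lowest were MRPS27 (-0.02), MRPL53 (0.01), MRPL45 (0.02) and MRPL54 (0.02). MRPL45, which anchors the ribosome to the inner membrane, stood at 87.2, 78.1, 73.6 and 72.5 CPM, and the part of sparse counts in its low value was not tested. MRPS27 and MRPL54 also ran against the family between sets. These values are descriptions over cells and carry no test.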

How the data were processed

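Cells of 4 melanoma lines were profiled with the Chromium Single-cell 3' kit, version 2, per the labels' protocols. The submitters' processing notes name the tools Cell Ranger 3.0.0 and Seurat 3.0 and the genome builds hg19 and mm10. Their roles were not given in the sources used here. The authors deposited UMI counts per gene and cell, which were used, and natural log values of the same cells, which were not used here. None of the 8173 cell columns could be tied to a line, so cells were parted by barcode suffix.

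UMI counts were summed per set and scaled to the total of that set (CPM), without a test, since each set is 1 library and cells are not replicates. Only genes reaching 10 CPM in some set were compared. Differences are on log2(CPM + 1), which understates ratios of low genes. Between-cell measures used cells thinned to 10000 UMIs, which leaves out 6, 1, 1 and 1 cells of sets 1 to 4, and phases came from scanpy 1.11.5. Doublets and free RNA were left in. TMM factors came from edgeR 4.0.16, and no model was fitted. CPM intervals are exact Poisson and ratio intervals exact conditional binomial. The calculations were tested on simulated data.

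Members named are the 5 highest and 5 lowest, the 8 with the widest span, the 2 farthest above and below the family in each set, the 4 highest and 4 lowest by correlation with the family, and MRPS18A, MRPS18B, MRPS18C, MRPS30, MRPS36, MRPL12 and MRPL41. Of every other list the 2 measured members with the widest span are named; further genes named, in the promoter, neighbour, phase and list paragraphs, were picked once their values had been seen. The grouping by systematic name was added after the levels had been seen. The members and lists were chosen with earlier results of these data known.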

Additional observations from a re-analysis of the deposited data

How the results depend on the processing

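No paired analysis was possible because the 4 libraries carry no replicate numbers. Of 30 alternative counts of members, 23 were within 1.5 times the reported count and 7 lay outside. The 31 members spanning 25% were between 10 and 31 when each set in turn was left out, lowest without set 1, where the share of all compared genes was lowest too (22.2%, and 40.3% to 48.8% without another set). The 3 members spanning 1.5-fold were between 1 and 3 in the same way, 1 without set 2 (13.2% of genes) and 1 without set 3 (14.7%). They were 0 with a pseudocount of 10 CPM (8.88% of genes), 0 with TMM scaling (17.3%) and 6 in G1 cells (22.5%). With no filter on low genes 1 member spanned 2-fold, MRPS24, against 5.26% of genes. Of 120 alternatives for the 30 named members 88 lay within counting error, 32 lay beyond it and 0 changed direction. Each compared the member's own highest with its own lowest set, as picked from the same counts. A change of direction was therefore unlikely from the outset, and its absence says little.

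The family's summed CPM in sets 1 to 4 was 9662, 10267, 9014 and 9494 with TMM scaling, 14112, 14625, 12968 and 13508 with totals without mitochondrially encoded and cytosolic ribosomal protein genes (which raise all genes by 0.48, 0.51, 0.53 and 0.51 on the log2 scale), 9725, 9769, 8567 and 9077 in G1 cells, and 9951, 10135, 8811 and 9294 as a mean over cells. Without second entries it was 10027 in set 1 and 10152 in set 2. The ratio of large to small subunit was 1.90, 1.82, 1.80 and 1.84 with subunits taken from structure and 1.65, 1.6, 1.61 and 1.64 without the 5 highest members. In G1 cells it was 1.65 in set 2 and 1.66 in set 3. As a ratio of medians it was 1.11 in set 1, turned to 0.979 in set 2 and 0.997 in set 3, and was 1.04 in set 4.

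The co-variation of both subunits was 1.41%, 1.59%, 1.68% and 1.77% in G1 cells, 1.0%, 0.758%, 1.02% and 0.987% without mitochondrially encoded genes and 0.955%, 0.649%, 0.782% and 0.654% in the central cells by mitochondrial share, an alternative chosen after seeing the data. At 5000 UMIs it was 1.32% in set 4. In G1 cells the family's co-variation was 1.63% with mitoribosome proteins under other names, 1.51% with assembly factors, 2.05% with mitochondrial DNA transcription, 0.884% with nuclear-encoded respiratory chain genes, -2.04% with mitochondrially encoded mRNAs, -0.874% with cytosolic ribosomal proteins and 2.12% with proteasome subunits. In the central cells it was 0.599%, 0.729%, 0.977%, 0.351% and -0.147% for the lists named before cytosolic ribosomal proteins, and 0.896% with proteasome subunits, 0.616% with S and 1.34% with G2 and M genes. With translation factors it was 0.436% at 5000 UMIs, 0.422% without mitochondrially encoded genes and 0.362% in the central cells. It was 0.127% with aminoacyl-tRNA synthetases at 5000 UMIs and 1.28% with proteasome subunits without mitochondrially encoded genes. The cause was not tested for any of these. Single members at the median level of 107.5 CPM give few UMIs in a cell of 10000 UMIs, which limits their correlations.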

Other observations

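Among all compared genes that are not members, those of the gene lists included, the genes whose thinned counts followed the family's sum most closely over cells were PSMA7, a proteasome subunit (mean r over the sets 0.31), PFN1, the actin-binding profilin (0.29), RAN, the GTPase of nuclear transport (0.29), ATP5G3, a subunit of the ATP synthase ring (0.29), and CYCS, cytochrome c (0.27). NME1, a nucleoside diphosphate kinase (0.27), RANBP1, which binds RAN (0.26), and NPM1, the nucleolar protein nucleophosmin (0.25), followed. All are abundant, with mean levels of 593 to 3123 CPM, and r is larger for abundant genes because counting noise weighs less. The most negative values belonged to MT-CO1 (-0.39), MT-ND4 (-0.35), MT-CYB (-0.33) and MT-CO3 (-0.33), followed by the elongation factor EEF1A1 (-0.30) and the cytosolic ribosomal protein RPS18 (-0.30). NEAT1, a nuclear RNA, stood at -0.28. MRPS6 and MRPL51 had the largest variance over mean between cells among measured members, at 1.28 and 1.28, where counting alone gives 1.0.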
